A study of Homo sapiens with 2 samples.

Results

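The genes described here belong to bone morphogenetic protein (BMP) signalling: the ligands BMP4 and BMP7, the receptors BMPR1A and BMPR2, the inhibitors SMAD6, SMAD7 and BAMBI, and the target genes ID1, ID2 and ID3. They are 10 of the 63677 genes in the deposited count table. The 10 genes were chosen by name with their read counts in these same 2 libraries already known, so their differences are a description and carry no test. RNA was sequenced from HGC-27 cells, an established human cell line that the labels call gastric adenocarcinoma, 48 hours after transfection with the reagent INTERFERin. The control culture received the empty plasmid pcDNA3.1, and the lncPSCA culture received the same plasmid carrying the long non-coding RNA lncPSCA, so both carried the vector backbone. There was 1 library per group, and the question addressed here is how transcripts of the BMP pathway stand when lncPSCA is overexpressed. No spread between cultures could be measured, so each fold carries only an exact 95% interval for counting error.

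BMPs are secreted dimers that bring together type I and type II receptor kinases on the cell surface. The activated type I receptor phosphorylates SMAD1, SMAD5 and SMAD9, which enter the nucleus with SMAD4 and switch on target genes. The best known targets are the ID genes, whose proteins bind basic helix-loop-helix E proteins and keep them off DNA, and the feedback inhibitors SMAD6, SMAD7 and BAMBI. Secreted antagonists such as noggin trap the ligands outside the cell, and in the stomach and intestine a balance of BMPs and antagonists is known to set epithelial differentiation.

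Total counts were 21552098 in control and 23016646 in lncPSCA, and levels are given as CPM, reads scaled to library size with TMM normalisation. No row of the table is called lncPSCA, and the gene PSCA had 22 and 28699 reads. Defining markers of the labelled tissue were scarce in both libraries. Of 6 epithelial markers, 3 reached a mean of 1 CPM and their summed level was 6.78 CPM in control and 5.57 CPM in lncPSCA, with 7 reads of EPCAM in each library and 4 and 0 of KRT18. Of 7 gastric and intestinal markers, only CDX2 reached 1 CPM (7.73 and 5.96 CPM), and TFF1, TFF2, GKN1 and MUC2 were at 0. All 6 fibroblast markers were measured, with a summed level of 2958 and 3274 CPM, most of it from the collagens COL1A1 (1112 and 1042 CPM) and COL3A1 (1557 and 1947 CPM). Among the 6 fibroblast markers COL1A2 was at only 12.3 and 16.8 CPM, and PDGFRB had 59 and 137 reads, a fold of 2.08. None of 4 endothelial markers reached 1 CPM, and 3 of 5 leukocyte markers did, with a summed level of 5.64 and 4.68 CPM and CD3E at 0. The identity of the line was not checked beyond these markers, and the values below are those of cells labelled HGC-27. Whether these marker levels play a part in the differences below was not tested. In bulk RNA, fewer cells of a type and less RNA per cell cannot be told apart.

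BMP4 was the member that stood out. Its transcript was less abundant by more than 2-fold in the lncPSCA library, while BMP7, the other ligand of the group, was close to level. ID3 was the member with the largest positive ratio, ID1 was nearly level, and ID2 had a ratio below 1. The receptors BMPR1A and BMPR2 had ratios modestly above 1, SMAD7 a ratio below 1, and SMAD6 and BAMBI were nearly level. A gene was called higher or lower by its size: the mean level had to reach 1 CPM, with at least a 2-fold difference after adding a pseudocount of 1 read, and a counting interval wholly beyond 1.5-fold. All 10 members reached the CPM minimum. By this size rule 1 member (BMP4) was lower and none was higher, where 0.596% of the 15440 measured genes were lower and 3.02% were higher. The median log2 ratio of lncPSCA over control was -0.01 for the 10 genes and -0.02 for all measured genes.

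**Figure D1:**
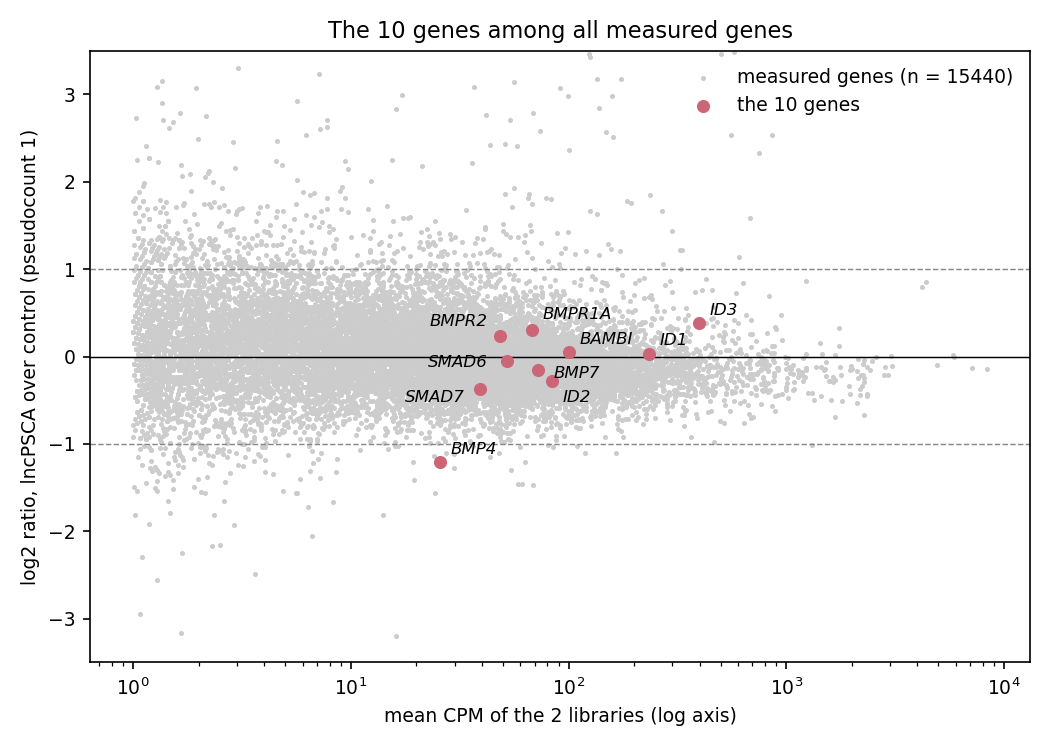
Log2 ratio of lncPSCA over control (vertical axis) against mean CPM (horizontal log axis) for the 15440 measured genes in grey and the 10 BMP genes in red, with dashed lines at 2-fold. The plotted range is 3.5 in either direction, and 53 genes lie above it and none below. BMP4 (-1.21) is the member beyond a dashed line, and the other 9 lie between -0.37 (SMAD7) and 0.38 (ID3).

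BMP4 (ENSG00000125378, chromosome 14) encodes a ligand that patterns mesoderm and gut and is also a Wnt target in carcinoma cells. Control gave 756 BMP4 reads and lncPSCA 364, levels of 35.8 and 15.5 CPM. The lncPSCA level was 2.31-fold lower (95% counting interval 2.04 to 2.63), a log2 ratio of -1.21, and 0.460% of measured genes had a lower ratio. Its counting interval lay wholly beyond 1.5-fold, but with an assumed coefficient of variation of 0.2 between cultures the interval of the ratio widened to 0.245 to 0.763 and BMP4 no longer met the rule. No gene overlaps BMP4 in GENCODE release 29 (an annotation of build GRCh38).

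BMP4 and ID1 are shown by the bases upstream of their starts because they are the lower ligand and a classical target gene with near-equal levels. The sequences are from RefSeq on GRCh38.p14, 5′ to 3′ on the gene's strand, up to 250 bases before the start. For BMP4 the most upstream of 3 RefSeq starts was used (chr14:53955051-53955300, minus strand), and for ID1 the run ends where its GENCODE exon begins (chr20:31605039-31605282, plus strand). Capitals mark GGCGCC, a GC-rich element bound by BMP-activated SMADs that reads the same on both strands, and GTCT or its reverse complement AGAC, the short SMAD box.
BMP4: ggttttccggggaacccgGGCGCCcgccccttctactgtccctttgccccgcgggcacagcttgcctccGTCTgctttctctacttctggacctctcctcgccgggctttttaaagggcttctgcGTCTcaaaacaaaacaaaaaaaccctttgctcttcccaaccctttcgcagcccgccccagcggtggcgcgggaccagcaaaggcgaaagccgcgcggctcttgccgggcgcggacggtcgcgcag
ID1: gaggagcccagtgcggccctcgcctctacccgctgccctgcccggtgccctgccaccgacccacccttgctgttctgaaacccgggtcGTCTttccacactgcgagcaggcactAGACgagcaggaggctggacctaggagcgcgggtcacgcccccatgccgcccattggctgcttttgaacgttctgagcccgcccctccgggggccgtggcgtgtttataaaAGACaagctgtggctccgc
The BMP4 window holds 1 match to GGCGCC and 2 to GTCT, and the ID1 window holds 3 to GTCT and none to GGCGCC. Over all 34943 windows of this length, 16.4% hold GGCGCC and 77.5% hold GTCT, so the shorter match is common. Windows were found for 9 of the 10 genes, 13 in all since BMP4 and SMAD7 have 3 starts each. BAMBI had 3 matches to GGCGCC and BMPR2 had 1. The windows of BMP4 starts 2 and 3 held none. The bases that follow the start used for BMP4 were found in none of its GENCODE transcripts, while those after starts 2 and 3 were found. Those after the starts of BMPR1A and BMPR2 were likewise not found in transcripts of these genes. Some windows overlap exons of their own gene, with 179 of the 250 bases for BAMBI, 202 for ID2 and all 250 for ID3. A match is a description of these letters and not a shown binding site. Bases further upstream were not searched, so a window without a match says nothing of elements there.

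BMP7 (ENSG00000101144, chromosome 20), a ligand known from kidney and epithelial development, had 1616 and 1622 reads, or 76.6 and 69.0 CPM. Its fold was 0.901 (0.840 to 0.966), so the counting interval lay below 1, as did that of 32.1% of measured genes. Its log2 ratio of -0.15 came to -0.09 under total-count scaling and -0.05 when centred along mean expression, so how far it lay from level depended on the scaling. Because BMP4 and BMP7 are counted in the same library, their shares do not depend on the scaling between libraries. BMP4 made up 31.9% of the reads of both ligands in control (exact binomial 95% interval 30.0 to 33.8) and 18.3% in lncPSCA (16.7 to 20.1). The 2 intervals do not overlap, but they cover counting error only and hold no spread between cultures. Per kilobase of the longest annotated transcript, the counting intervals of the 2 ligands overlapped in control. BMP4 was at 18.7 CPM per kilobase (17.4 to 20.1) and BMP7 at 19.1 (18.2 to 20.0). In the lncPSCA library BMP4 was at 8.08 CPM per kilobase (7.27 to 8.95) and BMP7 at 17.2 (16.4 to 18.1).

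The wider list of BMP ligands held 15 genes, of which 6 reached the CPM minimum, 1 (BMP4) was lower and none was higher. BMP5 was close to level, with 726 and 823 reads and a fold of 1.02 (0.920 to 1.13). BMP2, a close relative of BMP4 that binds the same receptors, had 122 and 144 reads and a fold of 1.06 (0.827 to 1.36), and BMP8B had 115 and 123 reads. BMP10, BMP15, GDF2 and GDF10 had no reads in either library, where a count of 0 allows up to 3 counts, or 0.142 CPM in control and 0.128 CPM in lncPSCA. The 6 measured ligands summed to 159 and 132 CPM. Without BMP4 the other 5 summed to 124 and 116 CPM, a fold of 0.943 (0.893 to 0.995), so most of the difference in the sum came from BMP4 reads.

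BMPR1A (ENSG00000107779, chromosome 10), the type I receptor kinase ALK3, had 1288 and 1775 reads, or 61.0 and 75.5 CPM, and a fold of 1.24 (1.15 to 1.33). BMPR2 (ENSG00000204217, chromosome 2), the type II receptor kinase that phosphorylates it, had 944 and 1235 reads, or 44.7 and 52.5 CPM, and a fold of 1.17 (1.08 to 1.28). Both counting intervals lay above 1, as did those of 27.0% of measured genes, and neither gene met the rule. Processed copies of BMPR1A elsewhere in the genome held few reads, 7 and 8 for BMPR1AP1 and 0 and 3 for BMPR1AP2.

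Other BMP receptors and co-receptors also had ratios above 1. Of 8 measured genes in that list of 11, none met the rule, all 8 had a log2 ratio above 0 (48.1% of all measured genes did), and 7 had an interval wholly above 1. The list median was 0.36. ENG, the co-receptor endoglin, was at 62.9 and 71.0 CPM, with a fold of 1.13 (1.05 to 1.21). ACVR1, the type I receptor ALK2, had the largest fold, with 149 and 269 reads and 1.62 (1.32 to 1.99), and the co-receptor RGMB had 358 and 565 reads and 1.42 (1.24 to 1.62). BMPR1B, the type I receptor ALK6, was scarce, with 103 and 133 reads and a fold of 1.16 whose interval (0.889 to 1.51) held 1.

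Transcripts of BMPR1A and BMPR2 are among the longest of the list, and length moved with the ratio of the libraries. Across 14993 measured genes with an annotated length, the Spearman correlation of transcript length with log2 ratio was 0.236, where genes are not independent. The longest transcripts of BMPR1A and BMPR2 measure 11255 and 11461 bases, and the 1500 measured genes with the longest transcripts had a median log2 ratio of 0.25, against 0.31 for BMPR1A and 0.23 for BMPR2. Centred along length and GC content, BMPR1A came to 0.01 and BMPR2 to -0.08, while 7 of 8 receptors stayed above 0 with a median of 0.14. BMP4 and the ID genes have short transcripts, of 1233 to 2041 bases, in length groups with medians of -0.15 and -0.12. After the same centring BMP4 was at -1.07 and ID3 at 0.51.

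**Figure D2:**
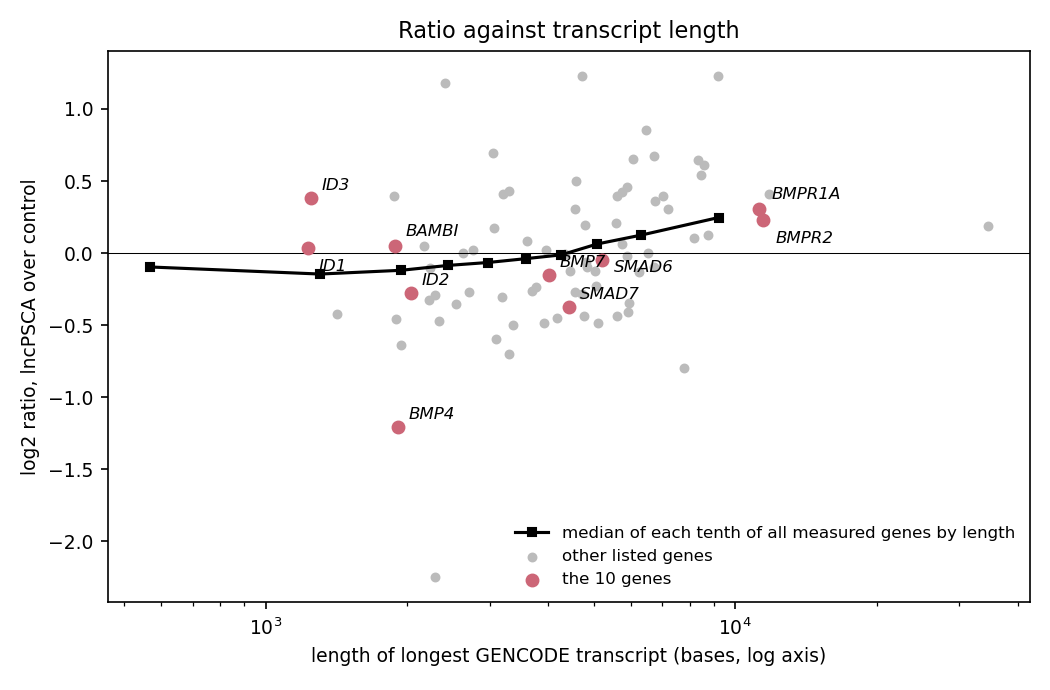
Log2 ratio of lncPSCA over control against the length of the longest GENCODE transcript in bases (log axis) for the 10 BMP genes in red and the other listed genes in grey, with black squares for the medians of 10 groups of measured genes split by length. The black line has its low point at -0.15 and ends at 0.25, BMPR1A and BMPR2 lie near its right end, and BMP4 and ID3 lie far from it.

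Secreted antagonists and modulators went both ways. Of 16 measured genes in this list of 21, 1 was higher and 1 lower by the rule, and 14 did not meet it. The median was -0.18, and 6 log2 ratios lay above 0, where 48.1% of all measured genes did. Counting intervals lay wholly below 1 for 8 of the 16 and wholly above 1 for 4, beside 32.1% and 27.0% of all measured genes. The median depended on the CPM minimum, with -0.29 at a mean of at least 5 CPM and -0.01 without a minimum. SOST, which encodes sclerostin, a Wnt and BMP antagonist known from bone, had 59 and 13 reads and was 5.06-fold lower (2.74 to 10.1). SOSTDC1, its relative also called ectodin or USAG1, had 87 reads in control against 221 in lncPSCA, 2.28-fold higher (1.77 to 2.96). An assumed coefficient of variation of 0.2 ended this call. Noggin (NOG), the classical BMP trap, had 889 and 723 reads or 42.1 and 30.8 CPM, and its fold was 0.730 (0.661 to 0.806). CHRD, encoding chordin, had only 14 and 38 reads, and GREM1 had none in either library.

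SMAD6 (ENSG00000137834, chromosome 15) encodes the inhibitory SMAD that acts mainly on BMP receptors and SMAD1. It had 1114 and 1203 reads, or 52.8 and 51.2 CPM, and a fold of 0.969 (0.893 to 1.05), whose sign on the log scale changed under total-count scaling and when centred along mean expression. SMAD7 (ENSG00000101665, chromosome 18), the inhibitory SMAD shared with TGF-beta signalling, had 937 and 806 reads, or 44.4 and 34.3 CPM. Its fold was 0.772 (0.702 to 0.849), and 15.3% of measured genes had a lower ratio. BAMBI (ENSG00000095739, chromosome 10), a membrane pseudoreceptor without a kinase domain, had 2089 and 2409 reads, or 99.0 and 103 CPM, and a fold of 1.04 (0.976 to 1.10). Of the 3 inhibitors, SMAD7 was the one whose counting interval lay wholly below 1, as did that of 32.1% of measured genes. The intervals of SMAD6 and BAMBI held 1.

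None of the 15 intracellular and membrane inhibitors listed met the rule, and their median was -0.02. The phosphatase gene CTDSP1 was at 102 CPM in both libraries, and the interval of its fold (0.945 to 1.06) held 1. SKI, a nuclear co-repressor of SMADs, had 2265 and 1869 reads and a fold of 0.741 (0.696 to 0.788). NEDD4L, a ubiquitin ligase that acts on activated SMADs, had 394 and 641 reads and the largest fold of the list, 1.46 (1.29 to 1.66).

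The 6 SMAD transducers also met the rule in neither direction, and 5 had a log2 ratio above 0 (median 0.29; 3 of 6 above 0 after centring along length and GC). The BMP-responsive SMAD1, SMAD5 and SMAD9 had similar folds, of 1.35 (1.19 to 1.53), 1.31 (1.21 to 1.43) and 1.32 (1.20 to 1.45). Together they had 2161 and 3184 reads, a fold of 1.32 (1.25 to 1.40). In the main analysis the log2 ratios of SMAD1, SMAD5 and SMAD9 were 0.429, 0.393 and 0.399. Centred along length and GC they came to 0.464, 0.225 and 0.334, so they were less alike. SMAD2 and SMAD3, which serve TGF-beta and activin receptors, together had 2949 and 3468 reads and a fold of 1.06 (1.01 to 1.11). SMAD2 had 1852 and 2352 reads, and its log2 ratio of 0.19 came to -0.37 when centred along length and GC, with a longest annotated transcript of 34526 bases.

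**Figure D3:**
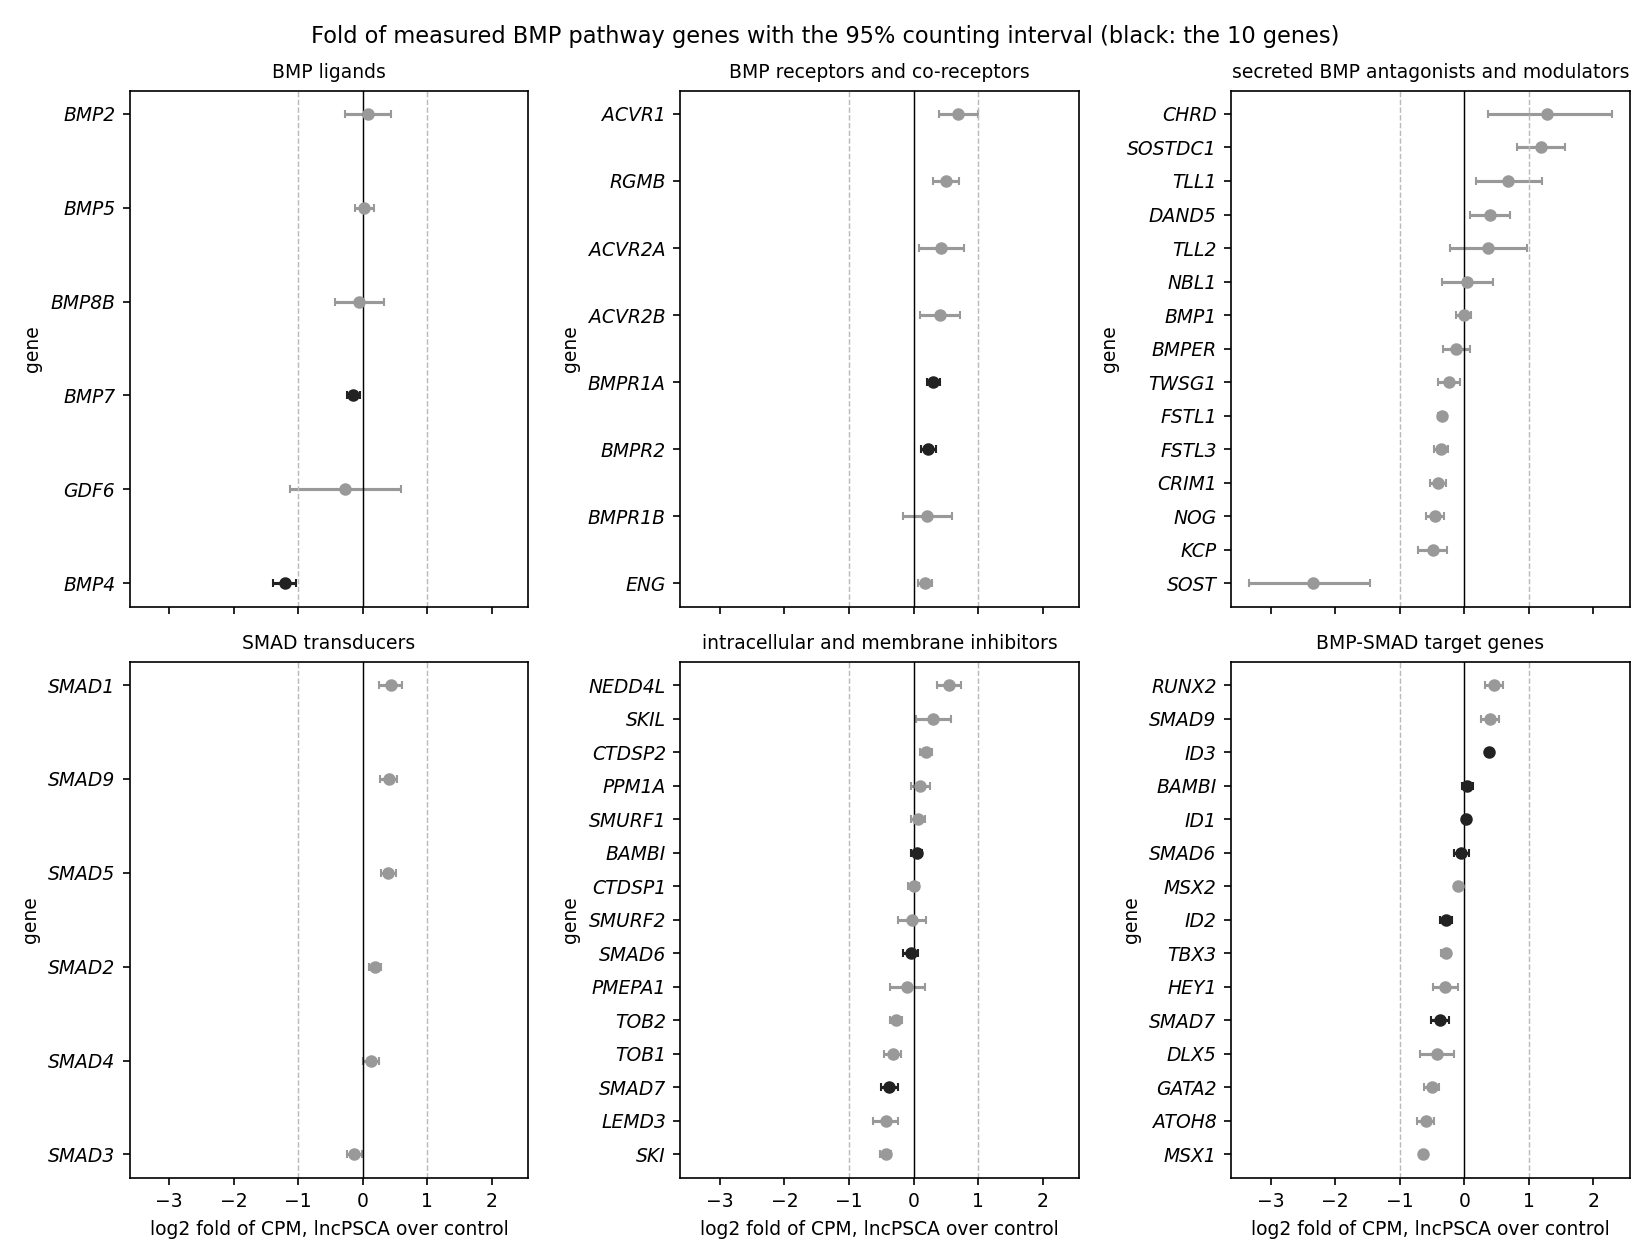
Fold of CPM of lncPSCA over control (log2 axis) with its 95% counting interval for measured genes in 6 role lists (1 antagonist is not shown), the 10 BMP genes in black and the others in grey, with dashed lines at 2-fold. BMP4, SOST, CHRD and SOSTDC1 have points beyond a dashed line. The 8 receptors all lie right of 0, and 10 of the 15 target genes lie left of 0.

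ID3 (ENSG00000117318, chromosome 1) was the most abundant member per transcript length in both libraries. It had 7278 reads in control and 10570 in lncPSCA, or 345 and 450 CPM, and a fold of 1.30 (1.27 to 1.34). ID1 (ENSG00000125968, chromosome 20) had 4891 and 5580 reads, or 232 and 237 CPM, and a fold of 1.02 (0.985 to 1.06), an interval that held 1. Its log2 ratio of 0.03 depended on the scaling, with 0.10 under total-count scaling, 0.17 when centred along mean expression and 0.14 along length and GC. ID2 (ENSG00000115738, chromosome 2) had 1948 and 1791 reads, or 92.3 and 76.2 CPM, and a fold of 0.825 (0.773 to 0.880). The size of its log2 ratio of -0.277 also depended on the processing, with -0.165 when centred along mean expression and -0.142 along length and GC. The antisense gene ID2-AS1 overlaps an ID2 exon in GENCODE release 29 and had 21 and 31 reads. Without a known strand setting, reads of the overlap cannot be told apart, but they are few beside those of ID2. ID4 was near absent, with 1 and 3 reads.

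The make-up of the ID transcripts therefore differed between the libraries. ID3 held 51.6% of the reads of ID1, ID2 and ID3 in control (50.7 to 52.4) and 58.9% in lncPSCA (58.2 to 59.6). The share of ID1 was 34.6% in control (33.9 to 35.4) and 31.1% in lncPSCA (30.4 to 31.8), and that of ID2 was 13.8% (13.2 to 14.4) and 9.98% (9.55 to 10.4). None of these pairs of intervals overlap, but they cover counting error only and hold no spread between cultures. Counting intervals of the fold lay wholly above 1 for 27.0% of measured genes and wholly below 1 for 32.1%. Summed over the 3 genes, the level was 669 CPM in control against 763 CPM with lncPSCA, which is 1.14-fold (1.12 to 1.17).

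**Figure D4:**
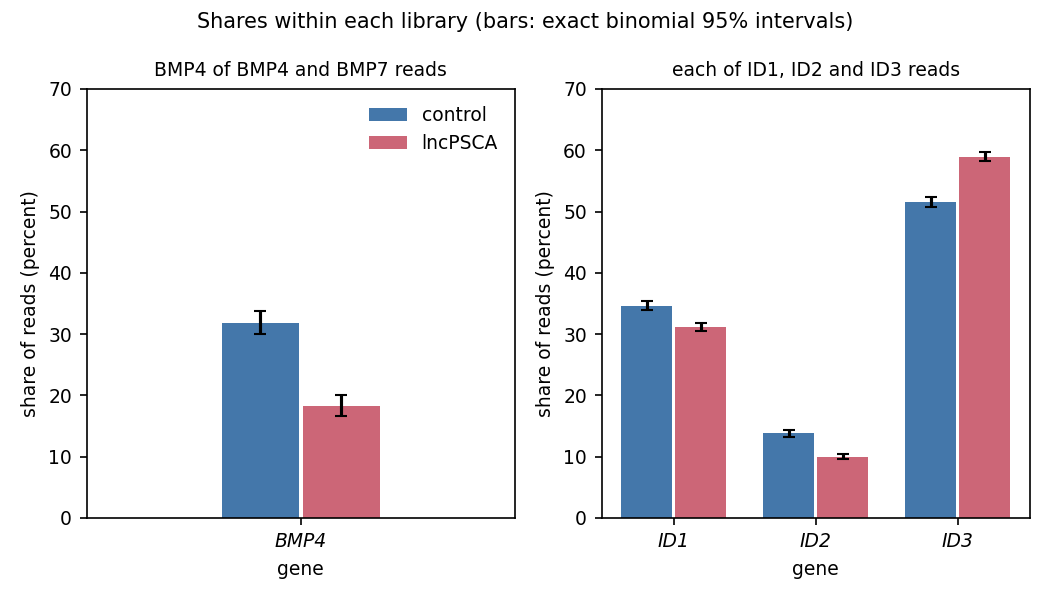
Share of reads in percent within each library, for BMP4 among BMP4 and BMP7 reads (left) and for ID1, ID2 and ID3 among their summed reads (right), with exact binomial 95% intervals as error bars. BMP4 goes from 31.9% in control to 18.3% in lncPSCA, and ID3 from 51.6% to 58.9%.

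Of the 15 measured genes in the list of BMP-SMAD targets, which holds 16 genes, none met the rule and the median was -0.28. A log2 ratio above 0 was found for 5 of them, where 48.1% of all measured genes had one. Centred along mean expression the median came to -0.15 with 7 genes above 0, and along length and GC to -0.14 with 6 above 0. This list includes the members ID1, ID2, ID3, SMAD6, SMAD7 and BAMBI, and also SMAD9, which is counted among the SMAD transducers as well. MSX2, a homeobox target, had 8040 and 8354 reads and a fold of 0.933 (0.904 to 0.962), whose log2 ratio changed sign under either centring. Its relative MSX1 had 7287 and 5232 reads and the lowest fold of the list, 0.644 (0.622 to 0.668). ATOH8, a basic helix-loop-helix target, had 1130 and 832 reads and a fold of 0.661 (0.603 to 0.723), and GATA2 one of 0.706 (0.652 to 0.765). RUNX2, the osteoblast regulator, had 638 and 979 reads and a fold of 1.38 (1.24 to 1.52). Of the 15 targets, 9 had a counting interval wholly below 1 and 3 wholly above 1. Over all measured genes these shares were 32.1% and 27.0%. Targets of the pathway thus had ratios on both sides of 1 in the same pair of libraries, with more of them below.

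E proteins, the partners that ID proteins bind, were all measured, and none of the 3 met the rule. TCF3 had the most reads, 10964 and 11237, with a fold of 0.920 (0.896 to 0.944) that turned positive on the log2 scale (0.04) after centring along mean expression. TCF12 had 2381 and 4168 reads and a fold of 1.57 (1.49 to 1.65), and TCF4 had 1094 and 1905 reads and a fold of 1.56 (1.45 to 1.69). Centred along length and GC these came to log2 ratios of 0.54 for TCF12 and 0.42 for TCF4.

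Genes of the neighbouring TGF-beta and activin branch were looked at in the same way. Of 7 measured ligands and receptors among 15 listed, none met the rule and the median was 0.03. TGFB1 had 3321 and 3765 reads and a fold of 1.02 (0.971 to 1.07), and its type I receptor gene TGFBR1 had 837 and 934 reads, with 1 inside the interval of its fold (0.911 to 1.10). The type II receptor gene TGFBR2 was nearly absent, with 1 and 6 reads. Of 11 measured TGF-beta targets, FN1, encoding fibronectin, was 2.35-fold higher (2.12 to 2.59) and the other 10 met the rule in neither direction, with a median of -0.30. FN1 fell just short of 2-fold when centred along length and GC, with a log2 ratio of 0.99, and an assumed coefficient of variation of 0.2 also ended this call.

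Ordered by CPM per kilobase of the longest transcript, the members ran in control from ID3 (276), ID1 (188), BAMBI (52.6) and ID2 (45.2) through BMP7 (19.1), BMP4 (18.7), SMAD6 (10.2) and SMAD7 (10.0) to BMPR1A (5.42) and BMPR2 (3.90). Counting intervals overlapped for the neighbours BMP7 and BMP4 and for SMAD6 and SMAD7, and for no other neighbours. In the lncPSCA library the order was the same, except that BMP4 (8.08) lay below SMAD6 (9.84). There the intervals of BMP4 and SMAD7 (7.74) overlapped.

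**Figure D5:**
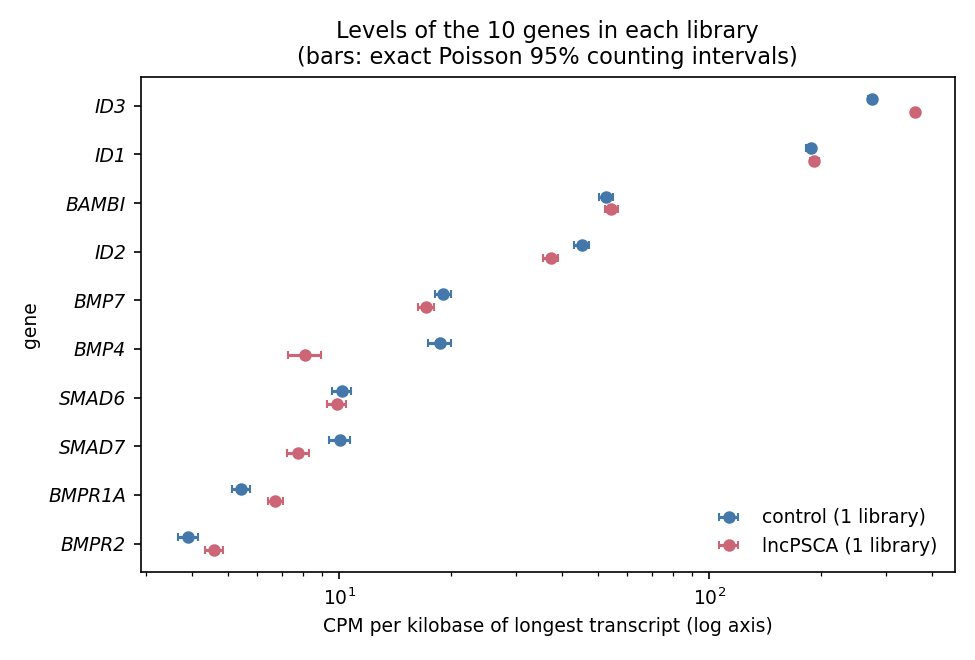
CPM per kilobase of the longest transcript (log axis) of the 10 genes in the control library (blue) and the lncPSCA library (red), with exact Poisson 95% counting intervals. ID3 is highest and BMPR2 lowest in both, and BMP4 shows the widest gap between libraries, 18.7 against 8.08.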

How the data were processed

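Total RNA of 2 HGC-27 cultures was sequenced, 1 library per group. The authors deposited raw read counts per Ensembl gene. Per the submitters' processing notes, TopHat2, HTSeq and hg19 were involved. Their versions and settings, the annotation, the strand setting and the library kit were not given in the sources used here. Symbols were matched for 81.9% of gene identifiers. No gene coordinates of the authors' build are given, and lengths, GC content and overlaps came from GENCODE release 29 (GRCh38).

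Scaling used the trimmed mean of M values (TMM) in edgeR 4.0.16; the factor was 0.979 in control and 1.02 in lncPSCA. Folds are ratios of CPM with exact (Clopper-Pearson) 95% intervals, and log2 ratios use a pseudocount of 1. Intervals cover counting error only and hold no spread between cultures. Reads carry no molecular identifiers, so copies of the same molecule could not be told from separate molecules, and intervals may be too narrow. With 1 library per group no test was possible. The size rule was checked on simulated counts that held counting error only. That check cannot show how the rule behaves with spread between cultures. Alternatives were DESeq2 1.42.0 size factors, total-count and upper-quartile scaling, centring by lowess along mean expression or along transcript length and GC, a pseudocount of 5, other CPM minima, and an assumed coefficient of variation of 0.2.

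The members and the 9 gene lists were chosen with earlier results of these data known. Genes named were the members, list genes meeting the rule (up to 4 per list), or the 2 most abundant of a list where none did. Others, such as ACVR1, NOG, MSX1 and TCF4, were named after their values were seen. The values of 1 listed antagonist are not reported here.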

Additional observations from a re-analysis of the deposited data

How the results depend on the processing

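BMP4 kept a log2 ratio between -1.23 and -1.07 under every alternative tried and met the size rule under all but the assumed coefficient of variation of 0.2, which left 0 members and 0 BMP ligands lower. That setting also left 0 antagonists higher (1 in the main analysis), 0 TGF-beta targets higher (1), and 216 of 467 genes higher and 27 of 92 lower over the whole table. By construction it widens the intervals. With a mean of at least 5 CPM, fewer genes were tested and 284 were higher, 46 lower and 0 antagonists lower (1, SOST). Without a CPM minimum 150 genes were lower. Centred along length and GC, 0 TGF-beta targets were higher. The difference in the share of BMP4 among BMP4 and BMP7 reads was -13.5 percentage points, -17.5 per kilobase of transcript and -10.8 among all measured ligands, and that of ID2 was -3.82 and -2.55 per kilobase. Among the members, BMPR2 and SMAD6 changed sign under 1 and 2 settings. Levels per length rest on the longest annotated transcript, which need not be the one these cells make. No paired analysis was possible because each group has 1 library. Leaving out a library was not possible for the same reason.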
